A study of Homo sapiens with 3 samples.

Results

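The mTOR kinase and its regulators were followed in ribosome profiling (Ribo-seq) libraries of cells that expressed wild-type or mutant p53. The 10 genes were chosen by name, not by their values, although earlier results of these data were known. They were the kinase MTOR, the scaffold subunits RPTOR and RICTOR, and the upstream regulators TSC1, TSC2 and RHEB. The others were the inhibitors DEPTOR and DDIT4 and the 4E-binding proteins EIF4EBP1 and EIF4EBP2. All 10 were among the 63241 genes of the deposited table, and all 10 were among the 19820 genes that passed the filter on low counts. mTOR is a protein kinase that joins nutrient and growth factor signals to protein synthesis. It works in one complex built on raptor (RPTOR), mTORC1, and in another built on rictor (RICTOR), mTORC2. TSC1 and TSC2 form a complex that switches off the small GTPase RHEB, the direct activator of mTORC1. Active mTORC1 phosphorylates the 4E-BPs, which otherwise bind the cap-binding factor eIF4E and hold back initiation of translation. Several genes that p53 induces, among them the sestrins, act against mTORC1.

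Ribo-seq sequences the pieces of mRNA that ribosomes shield from nuclease, so a footprint count reflects how much of an mRNA the ribosomes occupied. The host was HEK293T, an embryonic kidney line of human origin in which SV40 large T antigen, a viral protein able to bind p53, is made. The cells of each group expressed 1 of 3 constructs: WT p53, G245S p53 or R273H p53. Both mutations are cancer hotspots in the DNA-binding domain. All groups were grown in 10 cm dishes and received cycloheximide, which stalls elongating ribosomes, for 2 min. Washes held cycloheximide at 100 μg/mL, lysates were digested with micrococcal nuclease (3 U per μg RNA, 30 min), and footprints came from the monosome fraction. Each group had 3 dishes, and its dishes were pooled at reverse transcription, so that group and pool cannot be told apart in any comparison here. The labels call the cells stable lines in one field and transiently transfected in another. The paper states that stable lines were used for the ribosome profiling. For both mutants a treatment label names the wild-type construct, and groups followed the sample titles.

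The 9 libraries held 18.7 to 24.6 M footprint counts. Both p53 targets used to check the labels were lower in the mutants. MDM2, the ubiquitin ligase of p53, fell by 3.48 in G245S and decreased by 3.49 in R273H on the log2 scale, and CDKN1A, the p21 cell cycle inhibitor, had log2 fold changes of −1.92 and −2.14. KRT8 and KRT18, keratins of simple epithelium, were read at mean levels of 34.0 to 43.6 and 108 to 116 CPM (counts scaled to a common library total), while KRT19 had 0 or 1 count per library. KRT8 was higher in R273H than in WT, by 0.36 on the log2 scale (edgeR adjusted p = 1.3e-06), and its log2 fold change in G245S was 0.06 (adjusted p = 0.440). Of 5 markers of leukocytes, endothelium and fibroblasts, PTPRC, PECAM1 and COL1A2 had at most 3 counts, DCN had 2 to 9 and COL1A1 had 535 to 714. COL1A1 was lower in both mutants, with log2 fold changes of −0.21 for G245S (adjusted p = 0.0178) and −0.24 for R273H (adjusted p = 0.00448). The sum of these 5 ran from 31.0 to 34.4 CPM in WT, 25.3 to 29.8 in G245S and 27.0 to 29.6 in R273H, and the part of these markers in the results below was not tested.

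Ribosome occupancy of the 10 genes differed modestly between mutant and WT cells. In G245S, RICTOR, EIF4EBP1 and RHEB rose and EIF4EBP2 fell. In R273H the same 4 genes moved in the same directions, and DDIT4 fell as well. The largest change was RICTOR in R273H, a log2 fold change of 0.32. MTOR, RPTOR, TSC1, TSC2 and DEPTOR passed the test in neither mutant. The call rested on edgeR's quasi-likelihood test, with Benjamini-Hochberg adjustment over all 19820 genes and a threshold of 0.05. By this rule 4 of the 10 were called in G245S (3 higher, 1 lower), where 24.7% of all genes tested were called, 12.6% higher and 12.1% lower. In R273H 5 of the 10 were called (3 higher, 2 lower), against 28.8% of all genes, 14.2% higher and 14.6% lower. Of all genes whose mean count reached 100, as it did for these 10, the test called 33.1% and 37.6%, so that the share of the mTOR genes was near the background. The dishes of mutant and WT did not overlap for 4 of the 10 genes in each mutant, against 37.4% and 41.2% of all genes. Their median log2 fold changes were 0.08 in G245S and 0.06 in R273H, against medians of −0.00069 and −0.0024 over all genes. Both comparisons use the same WT dishes and are therefore not independent of each other. These are footprint counts relative to the rest of each library, and less mRNA cannot be told apart from fewer ribosomes per mRNA.

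**Figure D1:**
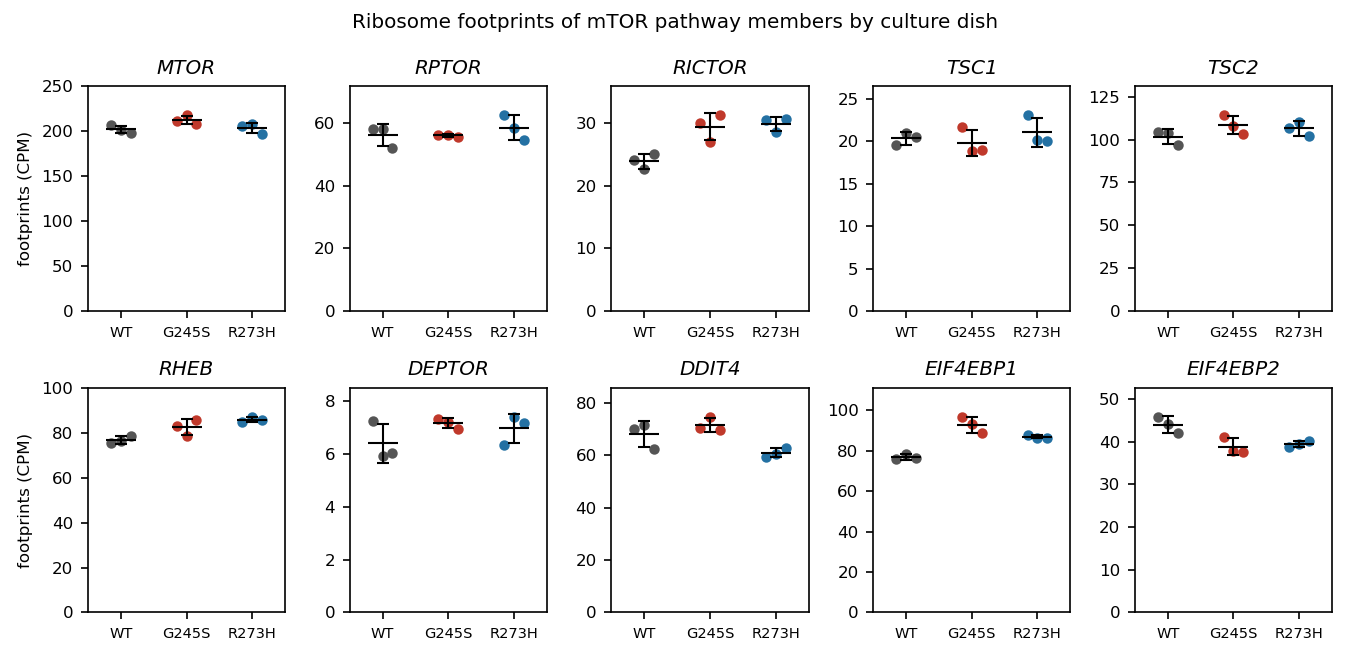
Footprints of each of the 10 genes (y axis, CPM, each panel with its own scale from 0) in the 3 dishes of WT, G245S and R273H; points are dishes, and lines are the mean ± SD (n = 3 dishes). RICTOR and EIF4EBP1 were higher in all 6 mutant dishes than in the WT dishes, and EIF4EBP2 was lower in all 6.

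Levels can be set against each other between genes only per length, here as CPM per kilobase of coding sequence. In WT cells EIF4EBP1 was the most densely occupied of the 10, at 217 ± 3.67 CPM per kilobase (SD, n = 3 dishes). RHEB followed at 139 ± 2.93, EIF4EBP2 at 122 ± 5.32 and DDIT4 at 97.9 ± 7.02 CPM per kilobase. The large proteins were far below these, with MTOR at 26.4 ± 0.539, TSC2 at 18.8 ± 0.813 and RPTOR at 14.02 ± 0.879 CPM per kilobase. TSC1, DEPTOR and RICTOR stood last at 5.83 ± 0.213, 5.21 ± 0.604 and 4.66 ± 0.235 CPM per kilobase. The WT dishes of TSC1 overlapped those of DEPTOR, and those of DEPTOR overlapped those of RICTOR, while all other neighbours in this order were apart. The first 7 places were the same in G245S and R273H. In G245S the dishes of EIF4EBP2 and DDIT4 overlapped as well, at means of 108 and 103 CPM per kilobase, and in both mutants the last 3 genes overlapped each neighbour in the order.

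MTOR, the kinase shared by both complexes (chr1:11106535-11262556, GRCh38, minus strand), was read at 206, 201 and 198 CPM in the WT dishes. The G245S dishes gave 211, 218 and 208 CPM and the R273H dishes 205, 208 and 197 CPM. All G245S dishes thus lay above all WT dishes, by little, and the R273H dishes overlapped them. The log2 fold change was 0.07 ± 0.0291 (SE; edgeR adjusted p = 0.0721) for G245S and 0.01 ± 0.0287 (adjusted p = 0.829) for R273H. Neither passed the test; G245S did so in 5 of 18 alternatives, among them upper-quartile scaling (adjusted p = 0.0376).

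RPTOR, the scaffold of mTORC1 that presents substrates to the kinase, passed the test in neither mutant. Its dishes read 58.1, 58.2 and 52.1 CPM in WT, 56.3, 56.3 and 55.6 CPM in G245S and 62.5, 58.5 and 54.8 CPM in R273H, and all 3 groups overlapped. The 95% intervals of its log2 fold change were −0.11 to 0.10 for G245S and −0.04 to 0.16 for R273H.

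RICTOR, the scaffold of mTORC2 (chr5:38937920-39074402, GRCh38, minus strand), rose in both mutants. It was read at 24.0, 22.6 and 25.0 CPM in WT, at 30.0, 27.0 and 31.2 CPM in G245S and at 30.4, 28.5 and 30.6 CPM in R273H. Every mutant dish was above every WT dish. The log2 fold change was 0.30 ± 0.0634 in G245S (edgeR adjusted p = 0.00072), 23.1% more footprints, and 0.32 ± 0.0615 in R273H (adjusted p = 0.00021), 24.9% more. Both calls held in all 18 alternatives. The gene shares its locus with OSMR, a cytokine receptor subunit on the other strand, and how strand was handled in counting is not given in the sources used here. OSMR counts came to 25.1% of the RICTOR counts in WT, 14.4% in G245S and 16.3% in R273H, and OSMR itself fell in G245S by 0.50 on the log2 scale (adjusted p = 0.0053), the direction opposite to RICTOR; its log2 fold change in R273H was −0.30 (adjusted p = 0.0659). The part of shared reads in the RICTOR values was not tested.

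The balance of both scaffolds was compared as the ratio of RPTOR to RICTOR counts within each dish. This ratio was 2.42, 2.58 and 2.08 in the WT dishes, 1.88, 2.09 and 1.78 in G245S and 2.05, 2.05 and 1.79 in R273H. The means were 2.36 ± 0.252 in WT, 1.92 ± 0.155 in G245S and 1.97 ± 0.152 in R273H (SD, n = 3 dishes). The R273H dishes lay below all WT dishes (exact permutation test on log2 ratios, two-sided, p = 0.1, the smallest that 3 against 3 dishes allow; adjusted p = 0.267 over 8 ratio tests), and 1 G245S dish overlapped them (exact p = 0.2, adjusted p = 0.32). With 3 dishes a group this test cannot pass the threshold.

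TSC1 and TSC2, the subunits of the complex that turns RHEB off, passed the test in neither mutant. TSC1 was read at 19.6 to 21.0 CPM in WT, 18.9 to 21.6 in G245S and 20.1 to 23.1 in R273H, with log2 fold changes of −0.04 ± 0.0736 (edgeR adjusted p = 0.744) and 0.05 ± 0.0706 (adjusted p = 0.637). TSC2, the subunit with the GTPase-activating domain, was read at 96.6 to 104 CPM in WT, 103 to 114 in G245S and 102 to 110 in R273H. Its log2 fold changes were 0.09 ± 0.0402 (adjusted p = 0.0962) and 0.07 ± 0.0395 (adjusted p = 0.217), with overlapping dishes in both. TSC2 was called in 3 of 18 alternatives in G245S, among them the fit without G245S dish 3 (adjusted p = 0.0257), and in 1 of 18 in R273H. PKD1, which overlaps the end of TSC2 on the other strand, had counts equal to 24.3% to 28.7% of those of TSC2 by group. The ratio of TSC2 to TSC1 counts was 5.00 ± 0.316 in WT, 5.49 ± 0.228 in G245S (exact permutation p = 0.2) and 5.08 ± 0.431 in R273H (exact permutation p = 0.8).

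RHEB, the GTPase that activates mTORC1 (chr7:151466012-151520120, GRCh38, minus strand), rose in R273H. The dishes read 75.8, 76.3 and 78.8 CPM in WT, 83.3, 78.8 and 85.9 CPM in G245S and 84.9, 87.3 and 85.8 CPM in R273H. The R273H dishes were all above WT, while 1 G245S dish fell among the WT dishes. The log2 fold change in R273H was 0.16 ± 0.0373 (edgeR adjusted p = 0.00166), and the call held in all 18 alternatives. In G245S it was 0.10 ± 0.0384 (adjusted p = 0.0481). That call was kept in 8 of 18 alternatives and was lost in DESeq2 (adjusted p = 0.146). When single dishes were dropped it was kept in 2 of 9 fits, those without G245S dish 2 (adjusted p = 0.0188) and without WT dish 3 (adjusted p = 0.0308); without G245S dish 3 the log2 fold change was 0.08 (adjusted p = 0.192). The processed copies RHEBP1 and RHEBP2 held counts equal to 13.4% to 15.9% and 11.4% to 12.2% of those of RHEB by group, so the split between gene and copies is uncertain. With the copies added to RHEB, an alternative chosen after the data were seen, the log2 fold changes were 0.10 (adjusted p = 0.038) for G245S and 0.18 (adjusted p = 0.00017) for R273H.

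DEPTOR, a subunit that inhibits mTOR, was the least covered of the 10, at 112 to 183 counts per library. It was read at 5.92 to 7.25 CPM in WT, 6.96 to 7.32 in G245S and 6.34 to 7.40 in R273H, and the groups overlapped. The log2 fold changes were 0.16 ± 0.118 (95% interval −0.08 to 0.40) and 0.12 ± 0.115 (−0.11 to 0.36), and neither passed the test (edgeR adjusted p = 0.352 and 0.471).

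DDIT4 (REDD1; chr10:72273919-72276036, GRCh38, plus strand) is a stress-induced inhibitor that acts on mTORC1 through TSC2, and it was the only one of the 10 called between the mutants. Its dishes read 70.1, 71.7 and 62.6 CPM in WT, 70.6, 74.7 and 69.6 CPM in G245S and 59.4, 60.7 and 62.8 CPM in R273H. All R273H dishes were below all G245S dishes, while the highest R273H dish was just above the lowest WT dish. Against WT, DDIT4 fell by 0.16 ± 0.0457 on the log2 scale in R273H (edgeR adjusted p = 0.00848), 10.6% fewer footprints by the fit, and its log2 fold change in G245S was 0.07 ± 0.0459 (adjusted p = 0.280). The difference between the mutants was 0.23 ± 0.0453 (adjusted p = 0.00377), 17.5% more in G245S. In this contrast 2.59% of all genes tested were called, 1.86% higher and 0.732% lower, and 1 of the 10 mTOR genes. The dishes of the mutants did not overlap for 3 of the 10, against 21.5% of all genes. The R273H call was lost without R273H dish 1 (adjusted p = 0.0507), without WT dish 2 (adjusted p = 0.0803) and once the trend of each library with coding length and GC was removed (hereafter the length and GC trend), where the log2 fold change was −0.07 (adjusted p = 0.160). The call between the mutants was lost without G245S dish 2 (log2 fold change 0.20, adjusted p = 0.0513) and held in the other 17 alternatives. No annotated gene overlaps DDIT4.

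**Figure D2:**
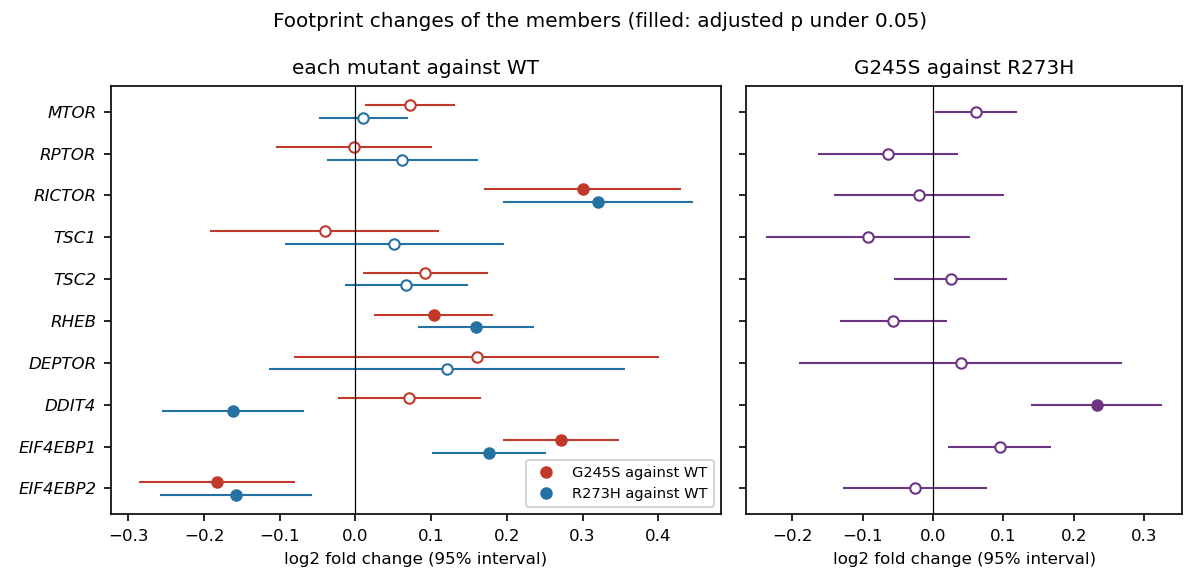
Log2 fold change (x axis) of each of the 10 genes with its 95% interval from the edgeR fit, each mutant against WT on the left and G245S against R273H on the right; filled points passed an adjusted p of 0.05. RICTOR at 0.30 and 0.32 and EIF4EBP1 at 0.27 and 0.18 stand to the right of 0, EIF4EBP2 at −0.18 and −0.16 to the left, and DDIT4 is the filled point between the mutants at 0.23.

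The 4E-binding proteins moved in opposite directions, although the calls of EIF4EBP2 were lost in some alternatives, given below. EIF4EBP1 and EIF4EBP2 encode close relatives that bind eIF4E through a short motif and are recruited to raptor through a TOS motif. Coding sequence for both motifs of EIF4EBP2 (chr10:70404145-70428618, GRCh38, plus strand, GENCODE v44) is shown because these are the parts by which mTORC1 and this protein meet and by which it acts. The first lies at chr10:70419928-70419948 in exon 2 of 3, codons 54 to 60 of 120, with the codons of the conserved tyrosine and leucine in capitals. The second lies at chr10:70421730-70421744 in exon 3, codons 116 to 120, with the phenylalanine codon in capitals.
EIF4EBP2 eIF4E-binding motif: TATgacagaaagtttCTGttg
EIF4EBP2 TOS motif: TTCgagatggacatc

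EIF4EBP1 (chr8:38030534-38060365, GRCh38, plus strand) rose in both mutants. Its dishes read 75.7, 78.3 and 76.6 CPM in WT, 96.7, 93.0 and 88.9 CPM in G245S and 87.7, 86.3 and 86.5 CPM in R273H. No mutant dish overlapped WT, and all G245S dishes were above all R273H dishes. The log2 fold change was 0.27 ± 0.0373 in G245S (edgeR adjusted p = 2.6e-06), 20.7% more footprints, and 0.18 ± 0.0367 in R273H (adjusted p = 0.00053), 13.0% more; both calls held in all 18 alternatives. The difference between the mutants, 0.10 with a 95% interval of 0.02 to 0.17, did not pass (adjusted p = 0.166).

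EIF4EBP2 fell in both mutants. It was read at 45.9, 44.3 and 42.1 CPM in WT, at 41.1, 37.9 and 37.6 CPM in G245S and at 38.9, 39.4 and 40.3 CPM in R273H. Every mutant dish was below every WT dish. It fell by 0.18 ± 0.0505 on the log2 scale in G245S (edgeR adjusted p = 0.00796) and by 0.16 ± 0.0489 in R273H (adjusted p = 0.0154), 11.9% and 10.4% fewer footprints. The calls were lost in DESeq2 (adjusted p = 0.0539 and 0.0981), without WT dish 1 (0.0537 and 0.0925) and, for R273H, without R273H dish 1 (0.0626). Without the length and GC trend the log2 fold changes were −0.10 (adjusted p = 0.103) and −0.04 (adjusted p = 0.518). That trend alone, fitted over 10886 genes, put EIF4EBP2 at −0.08 in G245S and −0.12 in R273H. For EIF4EBP1, of nearly the same coding length (354 against 360 nucleotides), it stood at −0.06 and −0.13, the direction opposite to that gene's change.

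The ratio of EIF4EBP1 to EIF4EBP2 counts separated the groups within each dish. It was 1.65, 1.77 and 1.82 in WT, 2.35, 2.45 and 2.36 in G245S and 2.26, 2.19 and 2.15 in R273H. The mean ratio was 1.37-fold higher in G245S than in WT and 1.26-fold higher in R273H, with all 6 mutant dishes above WT (exact permutation test, two-sided, p = 0.1 for each mutant, the smallest possible; adjusted p = 0.267 over 8 tests). The sum of both 4E-BPs relative to EIF4E, which encodes the cap-binding protein they hold, was 0.802 ± 0.0277 in WT, 0.842 ± 0.0505 in G245S (exact permutation p = 0.3) and 0.801 ± 0.0165 in R273H (exact permutation p = 0.9), and the dishes overlapped. EIF4E itself was read at 151 ± 2.92 CPM in WT, 157 ± 4.44 in G245S and 158 ± 3.92 in R273H and was called in neither mutant (edgeR adjusted p = 0.218 and 0.113).

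**Figure D3:**
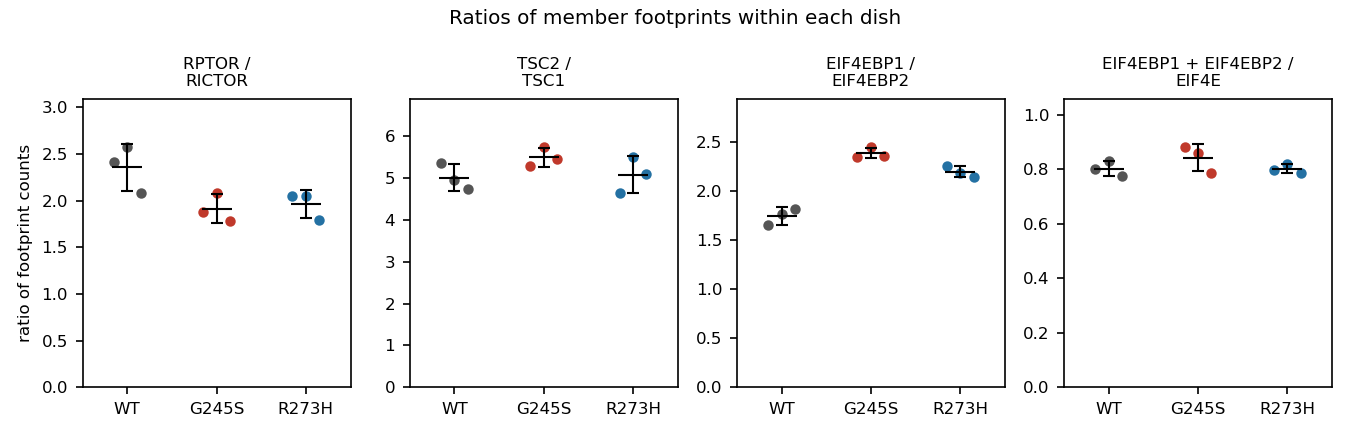
Ratios of footprint counts within each dish (y axis, no unit, from 0) for RPTOR to RICTOR, TSC2 to TSC1, EIF4EBP1 to EIF4EBP2 and the sum of both 4E-BPs to EIF4E; points are dishes and lines the mean ± SD (n = 3 dishes). The EIF4EBP1 to EIF4EBP2 ratio is 1.65 to 1.82 in WT and 2.15 to 2.45 in the mutants, while the ratio to EIF4E stays between 0.775 and 0.881 in every dish.

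The genes whose profile over the 9 libraries was most like that of RICTOR, by root mean square difference in log2 CPM from the WT mean among 12655 genes, were a processed pseudogene (ENSG00000256663, difference 0.0308), SFXN4, a mitochondrial protein (0.0373), and ATL2, an atlastin GTPase of the endoplasmic reticulum (0.0449). For EIF4EBP2 they were IFT22 (0.0303), a small GTPase of cilia, the homeobox gene DLX2 (0.0311) and GRN, which encodes progranulin (0.0335).

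**Figure D4:**
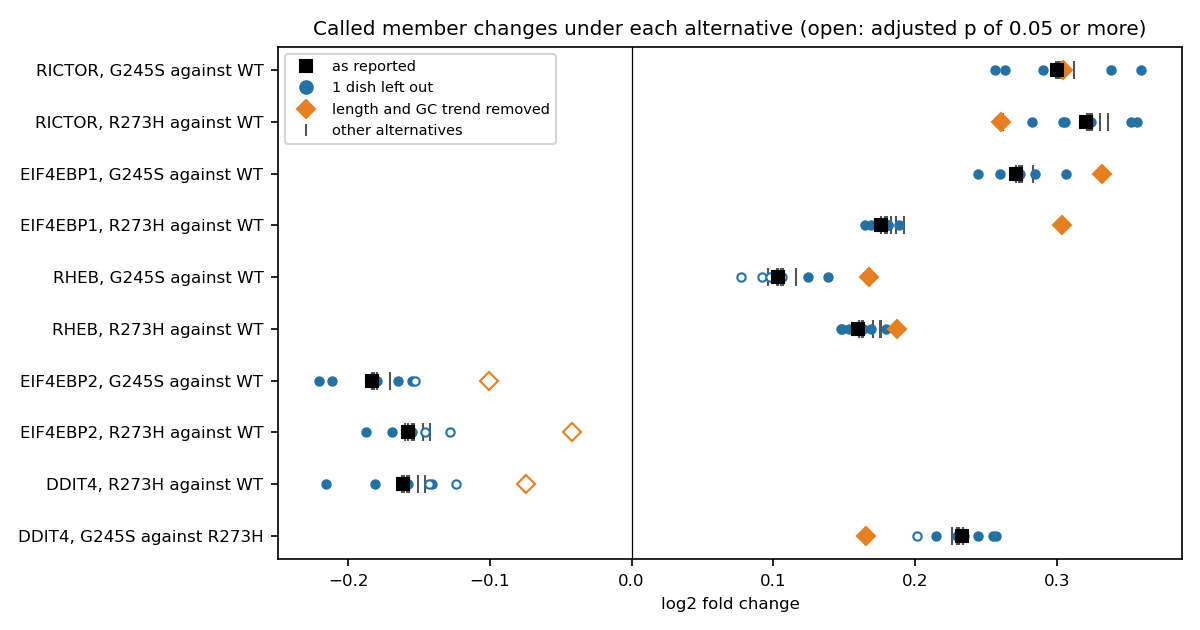
Log2 fold change (x axis) of each called mTOR gene as reported (black squares) and under the alternatives: leaving out 1 dish (blue circles), removing the length and GC trend (orange diamonds) and the others (ticks); open symbols had an adjusted p of 0.05 or more. RICTOR, EIF4EBP1 and RHEB in R273H stay filled in all alternatives, while the EIF4EBP2 changes, −0.18 for G245S and −0.16 for R273H as reported, are −0.10 and −0.04 without the trend.

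The rest of the pathway was taken from 6 lists of 97 genes in all, each of which passed the filter, and a further list that overlaps them. Of the 97 genes, 18 rose and 18 fell in G245S and 19 rose and 21 fell in R273H. These shares, 37.1% and 41.2%, compare with the 33.1% and 37.6% called among all genes whose mean count reached 100. The lists were drawn up with earlier results of these data known and are described by their counts only. The 8 partner subunits and assembly factors of the mTOR complexes had 3 called in G245S and 2 in R273H, each of them higher. These shares, 37.5% and 25%, stood beside 24.7% and 28.8% called among all genes tested. Among genes whose mean count reached 100, 33.1% and 37.6% were called. Calls higher made up 12.6% and 14.2% of all genes tested. PRR5, an mTORC2 subunit, rose by 0.39 ± 0.122 and 0.34 ± 0.119 on the log2 scale (edgeR adjusted p = 0.0216 and 0.0332). TELO2 and TTI1, which help to assemble mTOR and related kinases, rose by 0.18 in G245S (adjusted p = 0.00164) and by 0.15 in R273H (adjusted p = 0.00355), respectively. MLST8, the subunit common to both complexes, rose by 0.13 in G245S (adjusted p = 0.0374) and stood at 0.00 in R273H (adjusted p = 0.979). The PRR5 calls were lost in DESeq2 (adjusted p = 0.0618 and 0.0999), as was the MLST8 call (0.134), and all 3 without WT dish 3 (0.116, 0.174 and 0.166). The PRR5 and MLST8 calls in G245S were also lost without G245S dish 1 or 2, MLST8 without WT dish 1, and PRR5 in R273H without R273H dish 1 or 2 or WT dish 2.

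The largest falls among the 97 genes were of inhibitors of mTORC1 that p53 is known to induce. Of 5 such genes, 4 fell in both mutants, beside 12.1% and 14.6% of all genes, and members of this list also count within other lists. TSC2 and DDIT4, which belong to the same class, were left out of the 5 because they are among the 10 mTOR genes. TSC2 was called in neither mutant (log2 fold changes 0.09 and 0.07). DDIT4 stood at 0.07 in G245S, not called, and fell by 0.16 in R273H. In R273H 3 of the 5 fell in DESeq2, without R273H dish 3 and without WT dish 2, and 5 of 5 without WT dish 1. SESN1, a sestrin that restrains mTORC1 when amino acids are scarce, went from 62.7 ± 1.79 CPM in WT to 31.3 ± 1.18 in G245S and 29.5 ± 0.766 in R273H (SD, n = 3 dishes). It fell by 1.00 ± 0.0479 and 1.09 ± 0.0468 on the log2 scale (edgeR adjusted p = 8.8e-16 and 6.0e-17). Its relative SESN2 fell by 0.71 and 0.76 (adjusted p = 2.2e-12 and 3.4e-13). PRKAB1, a subunit of the energy sensor AMPK, went from 84.3 ± 2.51 CPM in WT to 42.1 ± 3.15 and 43.3 ± 0.716, a fall by 1.00 and 0.96 on the log2 scale (adjusted p = 4.9e-16 and 4.7e-16). IGFBP3, which encodes a protein that binds insulin-like growth factors, stood at −0.67 and −0.76 and was not called. The mutants were compared only with cells that expressed WT p53, and no untransfected control was analysed here. A fall in the mutants therefore cannot be told apart from a rise in the WT cells.

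Of 31 genes of amino acid sensing at the lysosome, 2 rose and 10 fell in G245S, while 5 rose and 11 fell in R273H (median log2 fold changes −0.10 and −0.11), beside 12.6% higher and 12.1% lower among all genes for G245S and 14.2% and 14.6% for R273H. Without the length and GC trend the counts were 2 higher and 9 lower, then 5 higher and 8 lower, and in DESeq2 R273H had 2 higher and 8 lower. Beside the sestrins, the genes that fell included subunits of Ragulator, the complex that anchors Rag GTPases to the lysosome, named here after their values were seen. LAMTOR2 to LAMTOR5 fell in both mutants, by 0.13 to 0.30 in G245S and 0.11 to 0.29 in R273H on the log2 scale, and LAMTOR1 fell by 0.22 in R273H. With the length and GC trend removed LAMTOR4 was called in neither mutant (adjusted p = 0.197 and 0.366), and LAMTOR1 and LAMTOR5 were not called in R273H (0.125 and 0.976). The R273H call of LAMTOR1 was also lost without R273H dish 3 (0.0521) and that of LAMTOR5 without R273H dish 2 (0.0629), and both were lost in DESeq2 (0.061 and 0.0577). MIOS and SEH1L, subunits of GATOR2, which counters an inhibitor of the Rag GTPases, rose by 0.24 and 0.29 and by 0.22 and 0.28.

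The growth factor and energy inputs showed 1 rise and 5 falls among 22 genes in G245S, and 2 rises and 5 falls in R273H. The shares called, 27.3% and 31.8%, were near those of all genes tested, 24.7% and 28.8%. They were below the 33.1% and 37.6% called among genes whose mean count reached 100. STRADA, a partner of the kinase LKB1, fell by 0.37 and 0.40 on the log2 scale, and PIK3R2, a regulatory subunit of PI3-kinase, fell by 0.32 and 0.55. PRKAG2, an AMPK subunit, rose by 0.44 and 0.50, opposite to PRKAB1, and CAB39 rose by 0.15 in R273H (edgeR adjusted p = 0.0364). The CAB39 call was lost without R273H dish 1 or 3 or WT dish 1 or 2 (adjusted p = 0.0644 to 0.165), and PIK3R2 in G245S was lost without G245S dish 1 (0.0587) and without WT dish 2 (0.0585). In DESeq2 both were lost (0.0512 and 0.0522). Among 4 relatives of TSC and RHEB, TBC1D7, the third subunit of the TSC complex, fell by 0.23 and 0.15, and DDIT4L, a relative of DDIT4, fell by 0.56 in G245S (adjusted p = 0.0105), a call lost without WT dish 3 (0.0722) and in DESeq2 (0.0696). TBC1D7 in R273H (adjusted p = 0.0304) lost its call in 6 of 18 alternatives, which included DESeq2 (0.136), upper-quartile scaling (0.053) and the fits without R273H dish 1 or 3 or WT dish 1 or 3 (0.0545 to 0.217).

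Downstream of the complexes, 4 of 17 genes rose and 1 fell in G245S, and 3 rose and 4 fell in R273H. These shares, 29.4% and 41.2%, stood beside 24.7% and 28.8% called among all genes tested. Among genes whose mean count reached 100, 33.1% and 37.6% were called. PDCD4, an inhibitor of the helicase eIF4A, fell by 0.33 and 0.28 on the log2 scale, and GRB10, an adaptor that mTORC1 phosphorylates, rose by 0.20 and 0.22. SGK1, a kinase that mTORC2 activates, rose by 0.36 ± 0.134 in G245S (edgeR adjusted p = 0.0486) and by 0.48 ± 0.129 in R273H (adjusted p = 0.00563). The first of these was kept in 11 of 18 alternatives and was lost without any 1 G245S dish, R273H dish 2 or WT dish 1 or 3 (adjusted p = 0.0508 to 0.220), and the second was lost without R273H dish 3 (0.0512) and WT dish 1 (0.0502). ULK1, a kinase that starts autophagy, fell by 0.21 in R273H, a call lost in DESeq2 (adjusted p = 0.0878), as was that of SGK1 in G245S (0.179). The translation of TOP mRNAs is known to follow mTORC1 closely. Of 15 TOP mRNAs, 8 were called in G245S and 7 in R273H, each of them higher. Of all genes tested, 12.6% and 14.2% were called higher. In either direction, 53.3% and 46.7% of the 15 were called, beside 33.1% and 37.6% of genes whose mean count reached 100. Any link of these counts to mTORC1 activity was not tested. The median log2 fold changes were 0.08 and 0.04, and ribosomal protein genes were kept out of this list. In R273H 1 of the 15 was called lower either with the dish number as a block or without WT dish 3. EIF3L and EIF3E, subunits of the initiation factor eIF3, moved most, by 0.30 and 0.28 in G245S and 0.33 and 0.33 in R273H.

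Between the mutants, 5 of the 97 genes were higher in G245S than in R273H and 0 were lower, against 2.59% of all genes called. The 5, named after their values were seen, were LAMTOR1 (0.25 on the log2 scale), EIF4G1 (0.09), EEF1G (0.14), EEF2 (0.12) and VIM (0.11). The call of EIF4G1 was lost without G245S dish 1 or 2 or any R273H dish (adjusted p = 0.0574 to 0.106), that of LAMTOR1 without G245S dish 1 or 2 or R273H dish 2 or 3 (0.108 to 0.188), and those of EEF2 and VIM without G245S dish 1 (0.0618 and 0.0594). The EEF2 call was also lost without the length and GC trend (0.0746).

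**Figure D5:**
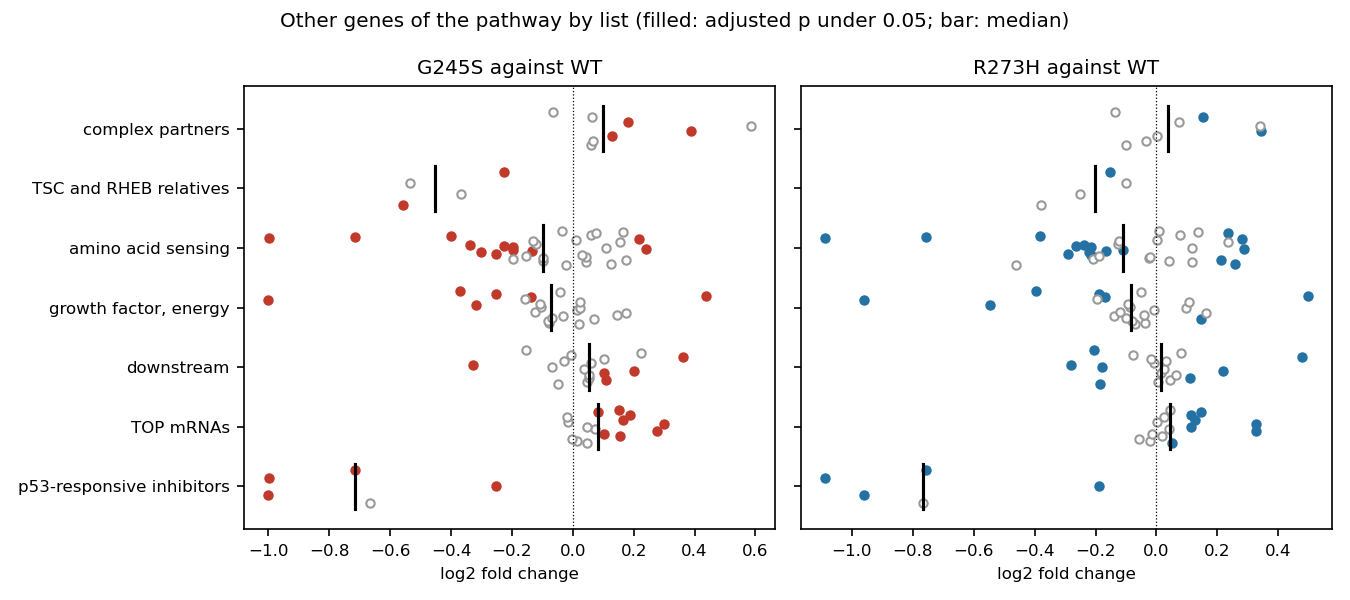
Log2 fold change against WT (x axis) of the other genes of the pathway by list, G245S on the left and R273H on the right; each point is a gene, filled points passed an adjusted p of 0.05 and bars are list medians. The p53-responsive inhibitors, which also appear in other lists, reach −1.09 in R273H, while called TOP mRNAs all lie above 0.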

How the data were processed

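Ribo-seq libraries of HEK293T cells with a WT, G245S or R273H construct were analysed (3 dishes per group, taken as replicates). The authors trimmed reads with Trim Galore, extracted molecular barcodes with UMI-tools where present, removed rRNA reads with SortMeRNA and aligned to GRCh38 with STAR. The deposited table holds expected counts per gene (estimated footprint counts), not scaled for depth or length. The counting tool, annotation release, strand and multi-mapping handling are not given in the sources used here. Of the nonzero values, 61.5% to 63.7% per library were not whole, so genes with near-identical copies are uncertain. Counts were rounded for the tests.

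edgeR 4.0.16 in R 4.3.3 fitted the 9 libraries in one model of group alone (TMM, filterByExpr, glmQLFit with robust estimation, glmQLFTest, two-sided; 6 residual degrees of freedom), after tests on simulated data. The threshold for a call was 0.05 after Benjamini-Hochberg adjustment across 19820 genes. The biological coefficient of variation was 2.58%. Every pair of dishes differed by more than sampling noise (chi-square per degree of freedom at least 1.48). Since dishes of a group were pooled at reverse transcription, p-values measure only the spread between dishes. Ratios were compared by exact permutation tests on log2 ratios (scipy 1.17.1). No spike-in or matched RNA-seq was used here, and an untransfected control was not analysed here. Coordinates, coding length and GC content came from GENCODE v44 (GRCh38), which matched 62666 of 63241 genes (99.09%).

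The 10 genes, the pathway lists and the tests were chosen with earlier results of these data known. The text names all 10 genes, from each pathway list the 2 called genes that rose most and the 2 that fell most per mutant, MLST8, EIF4E, SESN1, SESN2 and PRKAB1, CDKN1A and MDM2 as a check, and the 3 genes nearest in profile to RICTOR and EIF4EBP2. Alternatives were DESeq2 1.42.0, RLE and upper-quartile scaling, no filter, 2 groups only, the dish number as a block, removal of each library's trend with coding length and GC (alone or with the block), leaving out each dish and, chosen after seeing the data, adding pseudogene counts to their parent genes. SAMTOR was listed under its other symbol BMT2. The values of 1 gene of the pathway lists are not reported here.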

Additional observations from a re-analysis of the deposited data

Results flagged for a closer look

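The effects of G245S and R273H on DDIT4 differed by 0.23 on the log2 scale (edgeR adjusted p = 0.00377), with footprints higher in all 3 G245S dishes than in any R273H dish. Of the 10 mTOR genes it was the 1 for which the direct test between the mutants passed, beside 2.59% of all genes tested. KRT8, a keratin marker of epithelial cells, differed between the same groups, by −0.30 (adjusted p = 0.00053), and its relation to DDIT4 was not tested. The DDIT4 difference stood at 0.16 without the length and GC trend and was called there too. Without G245S dish 2 it was 0.20 and was not called (edgeR adjusted p = 0.0513).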

How the results depend on the processing

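The calls of RICTOR and EIF4EBP1 in both mutants and of RHEB in R273H held under all 18 alternatives, and no called change of the 10 genes turned direction under any of them. The number of the 10 genes called was 2 in G245S under DESeq2 (4 as reported), 3 in R273H with the length and GC trend removed (5 as reported) and 2 between the mutants with the dish block and the trend removed (1 as reported). Of the other pathway genes, 15 were called between the mutants with the dish block, 9 with block and trend and 8 with the trend alone (5 as reported). The log2 difference of the 4E-BP to EIF4E ratio in R273H was 0.10 with the trend removed, against −0.0017. Small changes that had not been called turned direction: RPTOR in G245S was 0.00031 under DESeq2, 0.0014 without a filter, 0.0013 with the block and 0.010 under upper-quartile scaling, and RICTOR between the mutants was 0.044 with the trend and 0.043 with block and trend removed.

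Leaving out 1 dish at a time, the 10 genes gave 2 to 5 calls in G245S, 3 to 5 in R273H and 0 to 2 between the mutants, and the other pathway genes gave 33 to 37, 33 to 40 and 1 to 8. The counts fell to 2 without WT dish 1 and to 3 without R273H dish 1. Between the mutants they were 0 without G245S dish 2 and 2 without G245S dish 3, and for the other pathway genes 1 without G245S dish 1, 3 without G245S dish 2, R273H dish 2 or R273H dish 3, and 8 without G245S dish 3 or WT dish 3. The log2 differences of the ratios, G245S then R273H, ran from −0.38 to −0.23 and −0.35 to −0.19 for RPTOR to RICTOR, 0.09 to 0.18 and −0.04 to 0.08 for TSC2 to TSC1, 0.41 to 0.48 and 0.29 to 0.36 for EIF4EBP1 to EIF4EBP2, and 0.04 to 0.12 and −0.03 to 0.02 for the 4E-BPs to EIF4E. Changes not called as reported that turned direction were RPTOR in G245S (−0.049 to 0.024), MTOR (−0.0054 to 0.034), TSC1 (−0.019 to 0.087) and MLST8 (−0.034 to 0.043) in R273H, and RICTOR (−0.066 to 0.038), TSC2 (−0.0098 to 0.063), DEPTOR (−0.024 to 0.086) and EIF4EBP2 (−0.064 to 0.0015) between the mutants.

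Dishes of the same number correlated in their deviations from the group means at r = 0.042 to 0.229 over 12656 genes. As r was not above 0.1 in every pair, they were taken to share only a number. Each dish nevertheless had its highest correlation with a dish of its own number. Between WT and R273H alone, R273H dish 2 correlated better with WT dish 1 (r = 0.058) than with WT dish 2 (r = 0.042). The replicate block raised the calls over all genes from 4900 to 5779 in G245S, from 5707 to 6547 in R273H and from 513 to 1262 between the mutants, and MTOR (adjusted p = 0.0149) and TSC2 (0.0156) were called in G245S. DESeq2 called 3049, 3571 and 358 genes, and leaving out a dish gave 162 to 712 between the mutants. At 112 to 183 counts, DEPTOR had the widest intervals of the 10 genes.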
